A study of Homo sapiens with 21 samples.

Results

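The 40 genes described here act in mitosis, from entry in late G2 through the spindle, the kinetochore and the spindle checkpoint to cytokinesis. They were listed by role, and all 40 were found among the 26809 genes with a matched transcript. They were read in 9 RNA-seq libraries of 786-O, an established cell line that derives from human clear cell renal carcinoma, from a series of 21 samples that also holds ChIP-seq not used here. Of these libraries, 3 came from cells labelled JMJD6 WT that received the control guide sgCtrl, 3 from cells labelled JMJD6 KO with guide sg2 and 3 from cells labelled JMJD6 KO with guide sg4. JMJD6 is an oxygenase that uses 2-oxoglutarate and iron. No further allele or agent is named for these RNA samples in their titles, although the treatment text describes siRNA transfection. The RNA was labelled as triplicates, with no word on whether each guide gave 1 clone or a pool, or whether the replicates were separate cultures, so p-values measure only the spread between these libraries.

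Mitosis is driven by CDK1 bound to cyclin A2 or cyclin B, and it ends when the anaphase-promoting complex marks cyclin B and securin for destruction. Most genes of this group are transcribed in G2 and M phase. In G1 and in resting cells the DREAM complex, which contains the MuvB core, holds them down, and later in the cycle MuvB acts with B-MYB and FOXM1 to raise them. DREAM and MuvB contact a short element near the start site, the cell cycle homology region (CHR), and NF-Y binds CCAAT boxes close to it. In bulk RNA, more cells in G2 and M phase and more of these RNAs per cell cannot be told apart.

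Libraries held from 14224263 to 16300347 estimated counts. Levels are given as CPM, counts scaled to a common library total after TMM adjustment, or as TPM, which also divides by transcript length and allows genes to be compared. JMJD6 mRNA was 41.5, 40.9 and 44.4 CPM with the control guide, 17.1, 16 and 17.3 CPM with sg2 and 11.7, 14.4 and 10.7 CPM with sg4. Every knockout library lay below every control, and the log2 fold change in the mean of both guides was −1.56 ± 0.086 (SE, adjusted p by edgeR = 5.41e-12). All 6 markers listed for the cell line (PAX8, EPAS1, CDH6, VIM, KRT8 and KRT18) were detected in every library. Their summed level was higher in every knockout library than in any control, from 6790 to 7070 CPM in the controls, from 7170 to 7600 CPM with sg2 and from 7390 to 7640 CPM with sg4, and 2 of the 6, KRT8 and KRT18, were called higher. Markers of other cells moved with the groups too: the summed level of 9 fibroblast and pericyte genes ran from 27.7 to 86.5 CPM in the controls, highest in control 1, from 18.5 to 23.4 CPM with sg2 and from 19 to 31.1 CPM with sg4, and none of the 9 was at 0 in every library. Of the leukocyte and endothelial genes, CD3E and CDH5 were at 0 throughout, and the summed level of the list ran from 54.2 to 68.7 CPM in the controls and from 46.3 to 56.3 CPM in the knockouts. The 3 airway genes summed to between 0.337 and 3.2 CPM in the controls and to between 4.03 and 11.5 CPM in the knockouts. By edgeR in the mean of both guides, 3 of 6 tested fibroblast and pericyte genes were called lower and 0 higher. Their lowest log2 fold change was −4.35. Of 2 tested leukocyte and endothelial genes 1 was called higher and 1 lower. The 2 tested airway genes were called higher, at 2.37 and 2.40. The part of these markers in the results below was not tested.

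The mitosis genes were all expressed in the control cells, at levels that ranged widely. UBE2C, the ubiquitin-conjugating enzyme of the anaphase-promoting complex, had the highest level per length, 432 ± 25.4 TPM (SD, n = 3). CDC20, an activator of that complex, stood at 251 ± 5.92 TPM. TPX2, which activates Aurora A on the spindle, stood at 246 ± 3.25 TPM, and these SDs overlapped. PLK1, a kinase of centrosome maturation and mitotic entry, followed at 225 ± 4.02 TPM. At the low end ESPL1, or separase, the protease that cuts cohesin, was at 16.8 ± 1.31 TPM, CENPE, a motor at the kinetochore, at 17.8 ± 1.71 TPM and PLK4, the kinase of centriole duplication, at 18.8 ± 1.61 TPM. The SDs of these last levels overlapped.

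**Figure D1:**
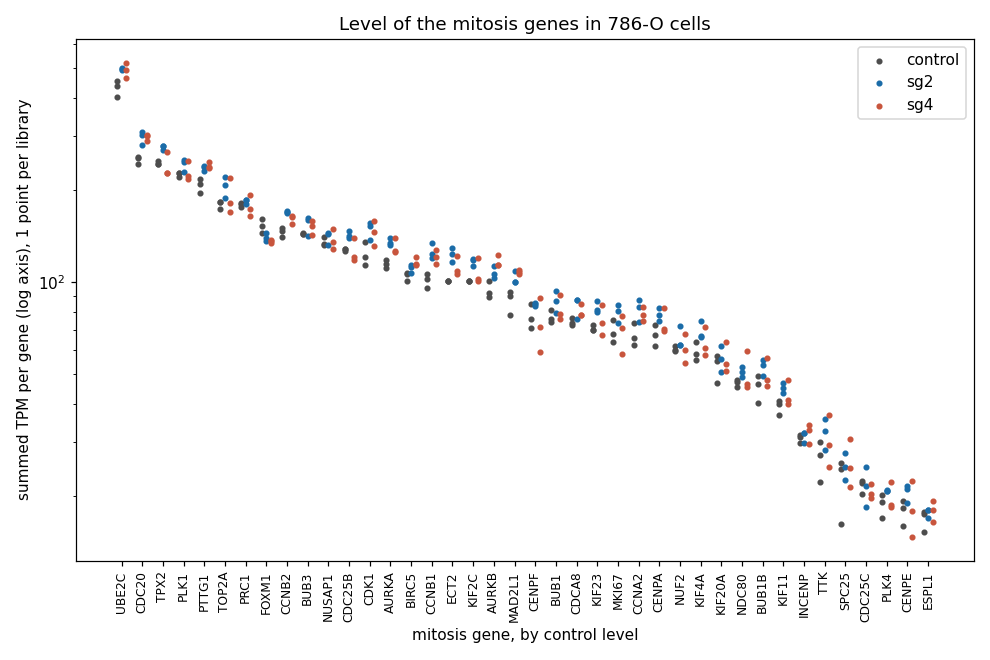
Summed TPM (log axis) of the 40 mitosis genes, ordered by control level, with 1 point per library for the control guide, sg2 and sg4. UBE2C was highest at 432 TPM in the controls and ESPL1 lowest at 16.8 TPM.

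The promoters of the members carry shared letters, shown here because these genes were mostly shifted in the same direction. RefSeq promoter windows (GRCh38.p14), from 250 bases before to 50 after a start, were matched for 33 members by symbol. AURKA, BIRC5, BUB3, FOXM1, TPX2, TTK and UBE2C were not searched. The windows were searched on both strands for the CHR letters TTTGAA or TTTAAA, for CCAAT and for the E2F-like letters TTNNCGC, where N is any base. Each motif was counted on its own, whether or not its bases were shared with a match of another. CHR letters stood in the windows of 30 of the 33 members (90.9%), against 21.1% of the 10912 tested genes with a window and 27.9% of all 27305 genes with one. For TTTGAA alone the shares were 72.7% of members, 13.5% of tested genes and 18.2% of all genes. From 100 bases before to 50 after the start, 29 of 33 members (87.9%) and 13.6% of all genes had CHR letters. CCAAT was present in 28 members (84.8%), 43.2% of tested genes and 39.7% of all genes. Both CHR letters and CCAAT were found in 25 members (75.8%) and 11.2% of tested genes, counted over all windows of a gene. In PLK4 and CDC25B they stood only in different windows. The E2F-like letters were found in 48.5% of members, close to the 44.1% of tested genes, and in 28.7% of all genes. Read beside the RNA calls described below, CHR letters were found in 15 of the 18 members called higher that had a window and in all 15 of those not called. A match is a description of the letters, not a binding site.

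The sequences below are the 200 bases before the most upstream RefSeq start of the 6 members with the largest called increases and a window, and of PLK1 and PRC1, which were not called and were added after their values were seen. They show where these letters stand, or are missing, in the promoters of some members that were called and some that were not. Whether the letters bear on the calls was not tested. Each is read 5′ to 3′ on the gene's strand, and capitals mark the CHR letters or CCAAT on either strand. On GRCh38.p14 they lie at chr5:69166950-69167149 for CCNB1, chr10:60778131-60778330 for CDK1, chr1:43358781-43358980 for CDC20 and chr16:23678689-23678888 for PLK1 on the plus strand. Those on the minus strand lie at chr4:120066849-120067048 for MAD2L1, chr17:8210250-8210449 for AURKB, chr4:121823884-121824083 for CCNA2 and chr15:90994536-90994735 for PRC1.
CCNB1: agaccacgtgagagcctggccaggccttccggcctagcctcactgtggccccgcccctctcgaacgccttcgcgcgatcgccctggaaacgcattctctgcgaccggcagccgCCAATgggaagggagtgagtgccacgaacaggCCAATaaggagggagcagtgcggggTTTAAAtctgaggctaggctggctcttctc
CDK1: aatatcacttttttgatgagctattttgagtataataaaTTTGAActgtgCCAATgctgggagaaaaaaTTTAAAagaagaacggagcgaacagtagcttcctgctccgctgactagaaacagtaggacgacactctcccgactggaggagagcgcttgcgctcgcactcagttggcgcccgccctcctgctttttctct
CDC20: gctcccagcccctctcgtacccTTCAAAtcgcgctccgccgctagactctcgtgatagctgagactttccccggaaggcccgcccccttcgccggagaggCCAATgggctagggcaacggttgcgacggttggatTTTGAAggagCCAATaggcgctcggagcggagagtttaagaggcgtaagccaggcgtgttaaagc
MAD2L1: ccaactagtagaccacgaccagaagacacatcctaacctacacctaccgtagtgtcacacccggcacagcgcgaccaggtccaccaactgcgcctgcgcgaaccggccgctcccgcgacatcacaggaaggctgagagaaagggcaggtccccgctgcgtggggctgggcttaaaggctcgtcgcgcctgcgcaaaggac
AURKB: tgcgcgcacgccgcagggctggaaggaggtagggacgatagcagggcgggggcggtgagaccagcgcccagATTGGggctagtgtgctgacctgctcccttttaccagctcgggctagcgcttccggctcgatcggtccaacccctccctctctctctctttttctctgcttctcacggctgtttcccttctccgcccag
CCNA2: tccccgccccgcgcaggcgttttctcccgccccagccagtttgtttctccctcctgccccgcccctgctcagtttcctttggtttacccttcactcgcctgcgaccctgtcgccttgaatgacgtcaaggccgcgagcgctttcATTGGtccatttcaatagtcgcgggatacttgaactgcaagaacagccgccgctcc
PLK1: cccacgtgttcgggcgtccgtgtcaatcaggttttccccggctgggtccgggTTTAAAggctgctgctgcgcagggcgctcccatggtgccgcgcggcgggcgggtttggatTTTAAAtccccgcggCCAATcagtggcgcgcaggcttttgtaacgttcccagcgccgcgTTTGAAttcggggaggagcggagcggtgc
PRC1: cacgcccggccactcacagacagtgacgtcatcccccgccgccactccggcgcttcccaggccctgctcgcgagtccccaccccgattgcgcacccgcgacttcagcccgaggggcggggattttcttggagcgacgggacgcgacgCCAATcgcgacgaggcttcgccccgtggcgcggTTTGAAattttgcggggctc
The CCNB1 promoter holds 2 CCAAT boxes, beginning at −87 and −55, and TTTAAA at −30, counted from the start as +1. In PRC1, CCAAT began at −53 and TTTGAA at −20. PLK1 has TTTAAA at −148 and −88, CCAAT at −73 and TTTGAA at −29. MAD2L1 shows no capitals in this stretch, and its TTTGAA begins at +25, inside the transcript. In the whole windows of AURKB and CCNA2, CCAAT was found on the reverse strand and none of the CHR letters were. Only TTTGAA and TTTAAA were searched, so a promoter without them cannot be said to lack a CHR.

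When both guides were set against the control, which asks what changes with loss of JMJD6, the mitosis genes were shifted upward together by a small amount. Of 40 members, all of which passed the filter on low counts, 22 rose and 0 fell (edgeR's quasi-likelihood test, adjusted p under 0.05 by Benjamini-Hochberg over 13530 genes), where 6.92% of all tested genes were called higher and 6.95% lower. Among the 9777 tested genes with a mean of at least 10 CPM, 9.07% were called higher. At an unadjusted p under 0.05, 31 members were higher and 0 lower, where 1772 of the 13530 genes were higher and 1872 lower. DESeq2 called 23 members higher and 0 lower. The median log2 fold change was 0.20 over the members and −0.01 over all genes, and 39 of the 40 members were above 0. The called increases ran from 1.13-fold to 1.27-fold, and 0 members reached a fold of 1.5. In 19 members every knockout library lay above every control (7.76% of all genes did so), and in 0 members every knockout library lay below (7.18%).

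The count depends on the controls. Without control 1, which held the most fibroblast marker RNA, 13 members were called higher and the members' median log2 fold change was 0.19. Without control 2 the count was 20 and without control 3 it was 16. Whether the marker RNA had a part in this was not tested. With all libraries, limma on log2(TPM + 1) called 11. For 12 members the call held whichever single library was left out: CCNA2, CCNB1, CCNB2, CDK1, AURKA, AURKB, MAD2L1, KIF2C, ECT2, CDC20, UBE2C and PTTG1. The other 10 called members lost it in at least 1 of the 9 fits, BUB1 and TTK in 6 each.

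By library, the summed level of the 40 members was 4185, 4282 and 4173 TPM in controls 1 to 3. It was 4772, 4878 and 4573 TPM in the sg2 libraries and 4883, 4395 and 4394 TPM in the sg4 libraries. All knockout sums thus lay above all control sums, by the least in sg4 libraries 2 and 3. The largest share of high values fell on 2 libraries: sg4 library 1 held the highest of the 9 values for 15 members and sg2 library 2 for 13. Control 3 held the lowest value for 21 members and control 1 for 9. Relative to the control mean, the median member stood at 0.22, 0.28 and 0.16 on the log2 CPM scale in sg2 libraries 1 to 3 and at 0.29, 0.14 and 0.14 in sg4 libraries 1 to 3, where the median over all genes was 0.00 in each library.

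**Figure D2:**
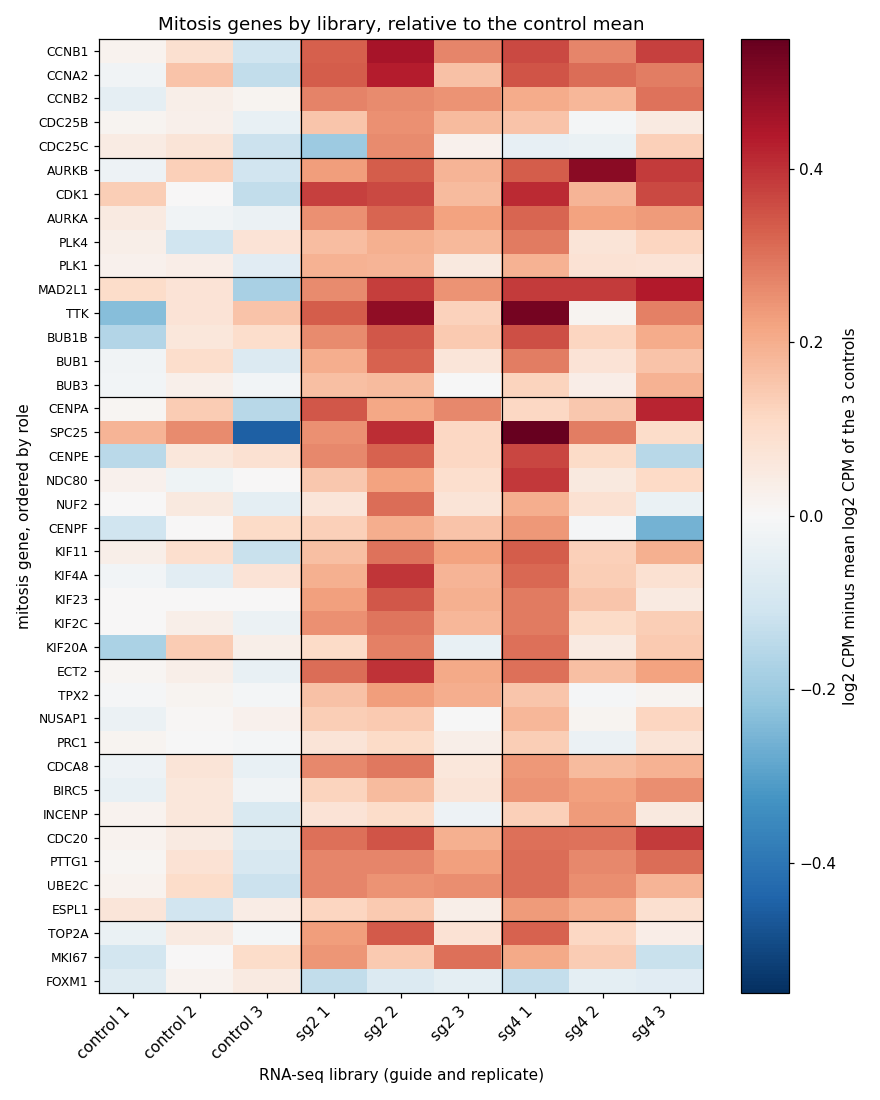
Log2 CPM of the 40 members in each of the 9 libraries, minus the mean of the 3 controls, with genes in rows grouped by role and libraries in columns. Red is higher and blue lower: the sg2 and sg4 columns are red for most genes and blue for FOXM1, and sg2 library 2 and sg4 library 1 are the deepest.

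Among the genes of mitotic entry, the cyclins rose and the CDC25 phosphatases were not called. CCNB1, which encodes cyclin B1, was 100.2, 105 and 91.5 CPM with the control guide, 124, 135 and 119 CPM with sg2 and 127, 119 and 128 CPM with sg4. The groups did not overlap, and the log2 fold change of 0.34 ± 0.057 was among the largest of the members (SE, adjusted p by edgeR = 2.06e-04). CCNA2, cyclin A2, which acts from S phase into prophase, was 88.5, 100.2 and 81.7 CPM with the control guide, 113, 121 and 100.5 CPM with sg2 and 114, 111 and 109 CPM with sg4. Its knockout values overlapped no control, although sg2 library 3, the lowest, was level with control 2, and the log2 fold change was 0.31 ± 0.064 (SE, adjusted p by edgeR = 0.00206). CCNB2, cyclin B2, had the highest TPM of the entry class and was 92.1, 97.4 and 96.1 CPM with the control guide, 115, 114 and 113 CPM with sg2 and 109.5, 108 and 117 CPM with sg4. All 6 knockout libraries were above all controls, with a log2 fold change of 0.25 ± 0.051 (SE, adjusted p by edgeR = 0.002). CDC25B and CDC25C remove the inhibitory phosphates from CDK1. CDC25B had a log2 fold change of 0.13 ± 0.05 (adjusted p by edgeR = 0.0845), with 5 of 6 knockout libraries above every control. CDC25C, at 0.02 ± 0.098 (adjusted p by edgeR = 0.922), had 2 of 6 above and the sign of its fold change turned in some fits with fewer libraries.

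Of the 5 kinases, 3 rose, with a class median of 0.27 on the log2 scale. CDK1, the catalytic partner of these cyclins, was 111, 101 and 91.8 CPM with the control guide, 131, 130 and 114 CPM with sg2 and 134, 115 and 129.9 CPM with sg4. Every knockout library lay above the highest control, control 1, and the log2 fold change was 0.31 ± 0.064 (SE, adjusted p by edgeR = 0.00186). AURKB, the kinase of the chromosomal passenger complex, was 44.6, 49.8 and 42.2 CPM with the control guide, 53.2, 57.2 and 51.7 CPM with sg2 and 57.2, 64 and 59.3 CPM with sg4. It was higher in all 6 knockout libraries than in any control, highest in sg4 library 2, and changed by 0.32 ± 0.068 on the log2 scale (SE, adjusted p by edgeR = 0.0022). It lost its call when control 3 and sg4 libraries 2 and 3 were left out together. AURKA, the kinase of centrosomes and spindle poles, was 126, 120.2 and 119 CPM with the control guide, 145, 152 and 142 CPM with sg2 and 152, 142 and 143 CPM with sg4. The 3 controls lay close together and under every knockout library, and the log2 fold change was 0.27 ± 0.05 (SE, adjusted p by edgeR = 7.86e-04). PLK1, the most abundant of the kinases per length, was 236, 238 and 222 CPM with the control guide, 265, 264 and 241 CPM with sg2 and 265, 245 and 244 CPM with sg4. Its groups did not overlap either, but sg2 library 3 was only just above control 2, and the log2 fold change of 0.13 ± 0.049 was not called (adjusted p by edgeR = 0.0771). PLK4 likewise was not called, at 0.17 ± 0.073 (adjusted p by edgeR = 0.13).

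Of the 5 spindle checkpoint genes, 4 rose, with a class median of 0.24. Limma on log2(TPM + 1) called 1 of the 5. This checkpoint holds the anaphase-promoting complex inactive until every kinetochore is attached. MAD2L1, which encodes the MAD2 subunit that sequesters CDC20, was 55.1, 54.2 and 45.5 CPM with the control guide, 61.5, 66.9 and 61 CPM with sg2 and 67.2, 67.1 and 69.5 CPM with sg4. All knockout libraries were above all controls, and the log2 fold change of 0.34 ± 0.066 was the largest of the members beside that of CCNB1 (SE, adjusted p by edgeR = 9.89e-04). TTK, the kinase MPS1 that starts the checkpoint signal, was 31.6, 39.2 and 41.5 CPM with the control guide, 46.8, 52.2 and 40.6 CPM with sg2 and 53.6, 37.6 and 45.1 CPM with sg4. Here the groups overlapped: control 1 was the lowest library, and sg2 library 3 and sg4 library 2 lay under control 3. The log2 fold change was 0.30 ± 0.098 (SE, adjusted p by edgeR = 0.0432), and without control 1 the call was lost. BUB1B, which encodes BUBR1, rose by 0.24 ± 0.066 (SE, adjusted p by edgeR = 0.0169) and BUB1, a kinase at the kinetochore, by 0.19 ± 0.06 (SE, adjusted p by edgeR = 0.0392), both on the log2 scale. BUB1B lost its call without control 1, and BUB1 without any of 6 libraries, among them controls 1 and 3. BUB3, the most abundant gene of the class per length, was 144, 148 and 144 CPM with the control guide, 163, 164 and 145 CPM with sg2 and 158, 149 and 166 CPM with sg4. Its sg2 library 3 fell among the controls, and the change of 0.12 ± 0.053 was not called (adjusted p by edgeR = 0.152).

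Of the 6 kinetochore genes 1 rose, with a class median of 0.18. CENPA, the histone H3 variant that marks centromeres, was 38.7, 42.4 and 34.6 CPM with the control guide, 48.7, 44.6 and 46.1 CPM with sg2 and 41.6, 42.6 and 51.4 CPM with sg4. It overlapped the controls in sg4 library 1 only, and rose by 0.25 ± 0.078 on the log2 scale (SE, adjusted p by edgeR = 0.0338). The call was lost without control 1, control 3, sg2 library 1 or sg4 library 3. CENPF, a large protein of the outer kinetochore and the most abundant member of the class per length, was 372, 402 and 432 CPM with the control guide, 439, 461 and 447 CPM with sg2 and 474, 399 and 335 CPM with sg4. Here sg4 library 3 was the lowest of the 9 libraries, and the change of 0.08 ± 0.068 was not called (adjusted p by edgeR = 0.486). NDC80 and NUF2, which pair in the complex that grips microtubules, stood at 0.17 ± 0.072 and 0.12 ± 0.069 on the log2 scale (SE), and neither was called. For NDC80 all 6 knockout libraries still lay above every control. SPC25, the third member of that complex described here, had the widest error of the members, 0.25 ± 0.14 (SE, adjusted p by edgeR = 0.233), and its lowest library had 8.67 CPM, in control 3. CENPE was at 0.18 ± 0.08 (adjusted p by edgeR = 0.154).

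Of the 5 kinesins, the motors of spindle assembly and cytokinesis, 4 rose, with a class median of 0.21. KIF2C, or MCAK, which takes apart microtubule ends, had the highest TPM of the class and was 133, 136 and 129.8 CPM with the control guide, 158, 163 and 151 CPM with sg2 and 162, 143 and 146 CPM with sg4. The groups did not overlap, and the log2 fold change was 0.21 ± 0.052 (SE, adjusted p by edgeR = 0.00772). KIF11, or Eg5, which pushes the spindle poles apart, rose by 0.22 ± 0.058, KIF4A, a motor on chromosome arms, by 0.22 ± 0.06 and KIF23, a motor of the central spindle, by 0.21 ± 0.056 (log2 and SE). In each of these 3 the knockout libraries all lay above the controls. KIF11 lost its call without control 3, KIF23 without control 1, and KIF4A without control 1 or control 2. Limma on log2(TPM + 1) called 0 of the 5 kinesins, and at an unadjusted p under 0.05 edgeR had 4 higher. KIF4A has a near-identical copy, KIF4B, which was given at most 1 count in any library. KIF20A, which carries the passenger complex to the midzone, was not called at 0.14 ± 0.072 (adjusted p by edgeR = 0.223).

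Set side by side, calls in the mean of both guides covered 3 of 5 kinases, 4 of 5 kinesins, 4 of 5 checkpoint genes and 1 of 6 kinetochore genes. Of all tested genes 6.92% were called higher. In the same order the counts were 3, 4, 2 and 0 with sg2 (5.00% of all genes) and 3, 1, 1 and 0 with sg4 (4.65%). Limma on log2(TPM + 1) called 3, 0, 1 and 0 in the mean of both guides. By edgeR in that mean, the medians of these 4 classes ran from 0.18 to 0.27 on the log2 scale, and the difference between classes was not tested. BUB1, BUB1B and TTK also carry kinase domains, and with them 6 of 8 were called. With CENPE counted as a kinesin, 4 of 6 were.

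Among the genes of the spindle midzone and poles 1 of 4 rose. ECT2, the exchange factor that activates RhoA at the division plane, was 208, 211 and 201 CPM with the control guide, 256, 272 and 239 CPM with sg2 and 255, 232 and 241 CPM with sg4. Every knockout library exceeded every control, and the log2 fold change was 0.27 ± 0.05 (SE, adjusted p by edgeR = 6.98e-04). TPX2, by contrast, was 429, 436 and 428 CPM with the control guide, 482, 506 and 495 CPM with sg2 and 479, 429 and 435 CPM with sg4. All 3 sg2 libraries were above every control, while sg4 libraries 2 and 3 were not, and the change in the mean of both guides was 0.13 ± 0.046 (adjusted p by edgeR = 0.0668). DESeq2 did call TPX2 higher, with an adjusted p of 0.0412, and so 2 of the 4. PRC1, which bundles microtubules at the midzone, and NUSAP1, which binds spindle microtubules, were at 0.06 ± 0.047 and 0.10 ± 0.052 and were not called.

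In the chromosomal passenger complex, which corrects wrong attachments, 2 of the 3 members other than AURKB rose. BIRC5, which encodes survivin, was 123, 132 and 125 CPM with the control guide, 138, 143 and 133 CPM with sg2 and 150.2, 148 and 151 CPM with sg4. Every knockout library lay above every control, by a small step with sg2 and a larger one with sg4, and the log2 fold change was 0.18 ± 0.049 (SE, adjusted p by edgeR = 0.0152). CDCA8, or borealin, rose by 0.20 ± 0.058 (SE, adjusted p by edgeR = 0.0196). BIRC5 lost its call without control 1 or control 3, and CDCA8 without either of these or sg2 library 1. INCENP, the scaffold of the complex, was not called at 0.09 ± 0.061 (adjusted p by edgeR = 0.348).

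Of the 4 genes of mitotic exit 3 rose, and each of these 3 was called with each guide. CDC20 was 183, 187 and 172 CPM with the control guide, 223, 229.6 and 207 CPM with sg2 and 223, 222 and 236 CPM with sg4. Every knockout library exceeded every control, and the log2 fold change of 0.31 ± 0.05 (SE) had the lowest adjusted p of the members (adjusted p by edgeR = 1.77e-04). PTTG1, or securin, the inhibitor of separase, was 63, 66.2 and 58.8 CPM with the control guide, 75.5, 75.5 and 73.1 CPM with sg2 and 77.4, 75.1 and 77.5 CPM with sg4. There was no overlap between groups, and the log2 fold change was 0.27 ± 0.057 (SE, adjusted p by edgeR = 0.0022). PTTG1 has near-identical copies, PTTG2 and PTTG3P, which were given at most 1 count in any library. UBE2C was 122, 129 and 111 CPM with the control guide, 145, 143 and 144 CPM with sg2 and 149, 144 and 137 CPM with sg4. All knockout libraries again exceeded all controls, with a log2 fold change of 0.25 ± 0.053 (SE, adjusted p by edgeR = 0.00233). ESPL1, the target of securin, was not called at 0.14 ± 0.063 (adjusted p by edgeR = 0.161).

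The last class joins TOP2A, MKI67 and FOXM1. TOP2A, the topoisomerase that untangles sister chromatids, was 498, 529 and 508 CPM with the control guide, 599, 647 and 541 CPM with sg2 and 639.6, 554 and 524 CPM with sg4. It overlapped the controls in sg4 library 3, and rose by 0.19 ± 0.057 on the log2 scale (SE, adjusted p by edgeR = 0.0271). The call was lost without any 1 of 5 libraries, controls 1 and 3 among them. MKI67, the proliferation marker Ki-67, had a change of 0.16 ± 0.06 (adjusted p by edgeR = 0.0857) that did not pass. FOXM1, a transcription factor of G2 and M phase genes, was the only member with a negative log2 fold change and was singled out after its values were seen. It was 245, 261 and 266 CPM with the control guide, 234, 244 and 248 CPM with sg2 and 235, 248 and 246 CPM with sg4. Control 1 lay among the knockout libraries, so the groups overlapped, and the log2 fold change of −0.08 ± 0.047 was not called (adjusted p by edgeR = 0.249).

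Each guide alone was also set against the control, with the same 3 control libraries in both comparisons. With sg2, 21 members rose and 0 fell (edgeR, 5.00% of all genes called higher and 5.36% lower), with a median log2 fold change of 0.23. At an unadjusted p under 0.05, 28 were higher and 0 lower with sg2, where 1612 of all 13530 genes were higher and 1726 lower. DESeq2 called 21 members higher and 0 lower with sg2. With sg4, 13 rose and 0 fell (4.65% of all genes higher and 3.78% lower), with a median of 0.18. At an unadjusted p under 0.05, 24 were higher and 0 lower with sg4, where 1592 of all 13530 genes were higher and 1556 lower. DESeq2 called 13 members higher and 0 lower with sg4. Both guides called 12 members higher, and 0 lower, where 2.76% of all genes were called higher by both and 2.22% lower: CCNA2, CCNB1, CCNB2, CDK1, AURKA, AURKB, MAD2L1, KIF11, ECT2, CDC20, UBE2C and PTTG1. BIRC5 was called with sg4 and not sg2, while KIF23, KIF2C, KIF4A, BUB1B, CDCA8, TOP2A, TPX2, CDC25B and MKI67 were called with sg2 and not sg4. Those differences in calling are no test of a difference between guides. These counts moved with single libraries. With sg2 the count was 12 without control 1 or control 3, 13 without sg2 library 1 and 10 without sg2 library 2. With sg4 it was 8 without control 3, and 4 members were called with both guides without control 3.

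The guides were compared directly as sg4 against sg2, which uses no control. By edgeR 0 of 40 members were called, where 0.0591% of all genes were, and DESeq2 and limma called 0 as well. At an unadjusted p under 0.05, 1 member was higher with sg4, BIRC5, and 3 were lower, TPX2, MKI67 and CDC25B. At the same cut, 715 of all 13530 genes were higher with sg4 and 622 lower. These 4 members were picked out with their values known, and whether members differed from all genes here was not tested. The log2 difference was 0.12 ± 0.056 for BIRC5 (adjusted p by edgeR = 0.501) and −0.14 ± 0.052 for TPX2 (adjusted p by edgeR = 0.394), with SE.

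**Figure D3:**
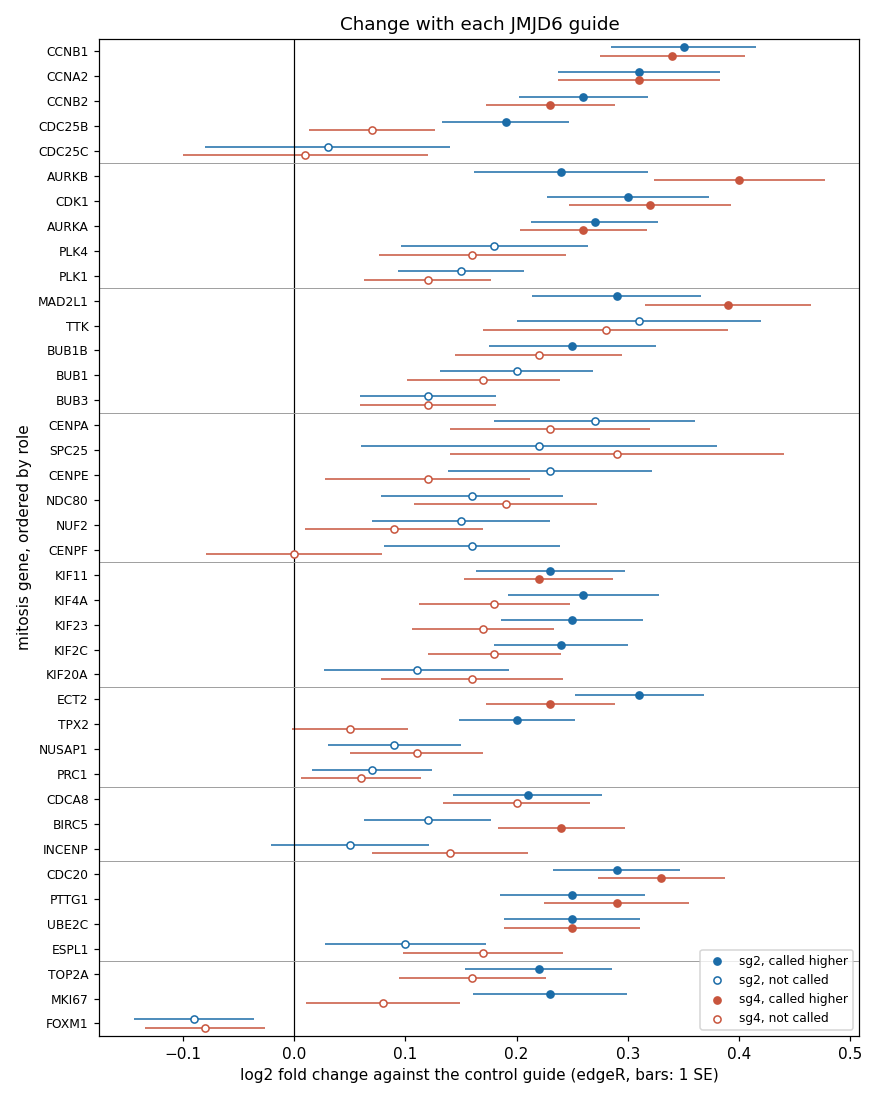
Log2 fold change of each member against the control guide with sg2 (blue) and sg4 (red), with bars of 1 SE and genes grouped by role. Filled points were called higher: 21 with sg2 and 13 with sg4, and FOXM1 alone lies below 0 with both.

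The effect of transcript length was examined because control 3 held relatively more long transcripts (a slope of 0.051 in log2 CPM per doubling of length) and sg4 libraries 2 and 3 fewer (−0.0341 and −0.0511). The 20 shortest members had a median log2 fold change of 0.25 with 13 called higher, and the 20 longest a median of 0.17 with 9 called. After subtraction of this trend from each library, 26 members rose and 0 fell (7.38% of all genes higher and 6.78% lower), 13 among the shortest 20 and 13 among the longest 20, with medians of 0.21 and 0.20. All 22 members called before were among the 26. The short UBE2C and PTTG1 moved to 0.16 (adjusted p by edgeR = 0.0447) and 0.19 (adjusted p by edgeR = 0.0222). Long members gained: MKI67 was at 0.21 (adjusted p by edgeR = 0.00174) and CENPE at 0.22 (adjusted p by edgeR = 0.0403), and both were then called, as were TPX2 and CDC25B. With a replicate block beside the length correction 20 members were called: of the 26, CENPE, TPX2, CDC25B, UBE2C, TTK and CENPA were not. CENPF was at 0.13 and still was not called. FOXM1 stayed at −0.08. With control 3 and sg4 libraries 2 and 3 left out instead, 22 members were called higher in the mean of both guides, but not the same ones: AURKB, BUB1, CENPA, BIRC5 and CDCA8 lost their calls and CENPE, CENPF, NDC80, TPX2 and MKI67 gained one. That fit has sg4 library 1 as the only sg4 library, assumed to vary like the libraries of the other groups, and it called 8 members with sg4 and 7 with both guides.

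**Figure D4:**
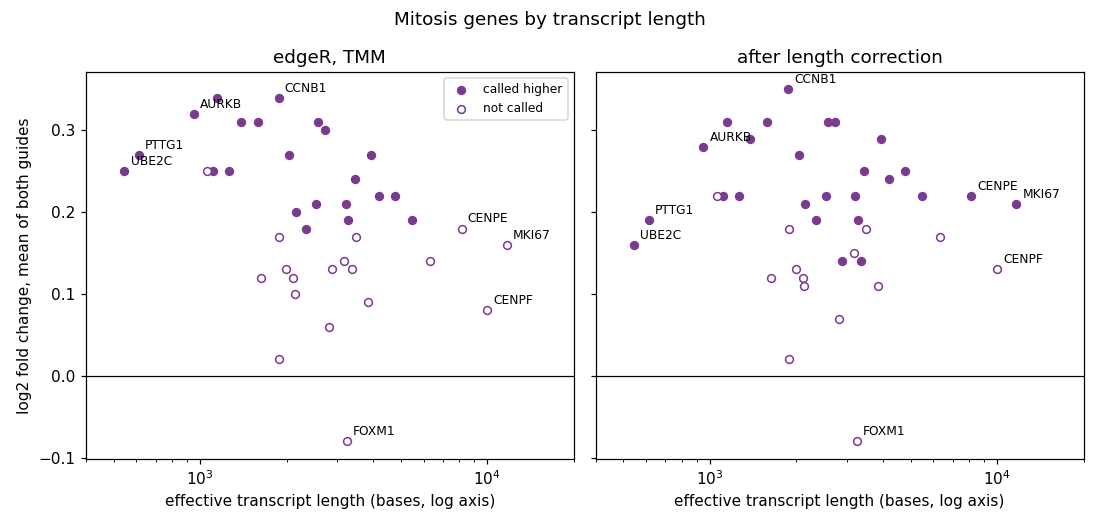
Log2 fold change of the 40 members in the mean of both guides against effective transcript length (log axis), before (left) and after (right) correction of each library for its trend with length. Filled points were called higher, 22 on the left and 26 on the right, and after correction the short UBE2C and PTTG1 lie lower and the long CENPE, MKI67 and CENPF higher.

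Of 123 other genes of mitosis, listed by role and all tested, 31 rose and 2 fell in the mean of both guides. Their share called higher was 25.2%, against 6.92% of all tested genes, and their median log2 fold change was 0.12. Without control 1 the number that rose was 14, without control 2 it was 19, without control 3 it was 16 and without sg2 library 2 it was 20, and limma on log2(TPM + 1) called 7. Genes of the spindle and cytokinesis gave 13 of 27, the largest being HAUS1 (0.31 ± 0.092), a subunit of the augmin complex, FAM83D (0.30 ± 0.069), which takes casein kinase 1 to the spindle, and DIAPH3 (0.29 ± 0.07), a formin (log2 and SE). NUMA1, which anchors spindle poles, fell in that group. Other regulators of entry gave 4 of 15, led by CKS2 (0.42 ± 0.068) and CKS1B (0.32 ± 0.062), small subunits of CDK complexes, and CCNF (0.27 ± 0.068), cyclin F. Other kinetochore genes gave 7 of 33, led by ZWILCH (0.43 ± 0.061), a subunit of the RZZ complex, TRIP13 (0.32 ± 0.064), which recycles MAD2, and SPDL1 (0.30 ± 0.059), which brings dynein to kinetochores. ZWILCH had the largest change of the 123 genes: it was 68.1, 75.6 and 70.6 CPM with the control guide, 91.6, 102 and 94.6 CPM with sg2 and 104, 88.6 and 95.8 CPM with sg4, with no overlap between groups (adjusted p by edgeR = 3.85e-05).

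In the condensins 3 of 8 rose, SMC2 (0.25 ± 0.069), NCAPG (0.18 ± 0.06) and SMC4 (0.16 ± 0.054). In cohesin and its regulators 3 of 11 rose, SGO2 (0.35 ± 0.077), a protector of centromeric cohesin, CDCA5 (0.23 ± 0.068), or sororin, and RAD21 (0.16 ± 0.054), the subunit that separase cuts, all as log2 fold changes with SE. The median was 0.14 over the condensins and 0.04 over the cohesin list. Guide sg2 alone called 2 genes of each list higher. Guide sg4 alone called 0 in either, with 4 condensins and 3 cohesin genes higher at an unadjusted p under 0.05. Limma on log2(TPM + 1) called 0 in either list in the mean of both guides. The anaphase-promoting complex, whose partners CDC20 and UBE2C rose, had 1 of 17 higher, UBE2S (0.19 ± 0.054), its chain-extending enzyme. It had 1 lower, ANAPC2 (−0.27 ± 0.074), its cullin subunit. In each direction 1 of 17 is 5.88%, no more than the share of all tested genes. Among 7 other mitotic kinesins and 5 genes of centriole duplication 0 were called by edgeR in the mean of both guides in either direction, with 2 and 0 higher at an unadjusted p under 0.05 and 0 called by DESeq2 or limma. Of these kinesins 1 was called higher with sg2 alone, KIF14, and 2 in the mean of both guides after the length correction, KIF14 and KIF18A, named after their values were seen.

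Regulators of these genes, and genes of DNA replication and S phase, were read beside them and are named after their values were seen. Of 15 genes of DREAM, MuvB and the E2F family 2 rose (13.3%), and the median was 0.06. These were MYBL2 (0.24 ± 0.05), which encodes B-MYB, and TFDP1 (0.23 ± 0.052), a partner of E2F. Of 34 genes of DNA replication and S phase 4 rose (11.8%), RRM2 (0.35 ± 0.056), GINS1 (0.33 ± 0.071), CDC6 (0.32 ± 0.069) and RFC3 (0.32 ± 0.084), and the median was 0.11, all as log2 fold changes with SE. At an unadjusted p under 0.05 by edgeR, 16 of these 34 were higher and 0 lower, and 28 were above 0. At that cut 3 of the 15 DREAM, MuvB and E2F genes were higher and 1 lower. The same cut gave 51 of the 123 other mitosis genes higher and 4 lower, and 31 of the 40 members higher and 0 lower. Of all 13530 tested genes 1772 were higher and 1872 lower. Of all tested genes 6.92% were called higher, and 9.07% of those with a mean of at least 10 CPM. The share called in the mitosis genes was 55.0%, and the difference between these lists was not tested.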

How the data were processed

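Whole-cell RNA of 786-O cells was sequenced in 9 libraries. Per the file headers, the deposited Salmon tables hold, for each RefSeq transcript, its TPM, its estimated count and its effective length. All 60422 estimated counts in each deposited table were whole numbers exactly, with no tolerance. The submitters' processing notes name cutadapt 1.12, STAR 2.5.2b, Salmon and DESeq2. The strand setting and annotation release are not given in the sources used here. Counts and TPM were summed per gene through the GRCh38.p14 gene table, used for names, and 58031 accessions (96.0%) matched. The unmatched accessions held from 1.33% to 1.65% of the counts.

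All 9 libraries entered 1 edgeR 4.0.16 quasi-likelihood fit (R 4.3.3, limma 3.58.1) with TMM and filterByExpr. Tests were 2-sided with Benjamini-Hochberg adjustment over 13530 genes and a threshold of 0.05. The SE is the log2 fold change divided by the root of the F value. Alternatives were DESeq2 1.42.0, other scalings and filters, left-out libraries, a replicate block, a lowess length correction (span 0.3) and limma on log2(TPM + 1), where a fold change is on the log2(TPM + 1) scale. The pipeline was tested on simulated data. The members and lists were chosen with earlier results of these data known. Values by library are given for the 12 members with the largest called changes and the most abundant of each class, and of each list of other mitosis genes up to 3 called genes are named. The peak lists were not used here, since no annotation of their build was at hand. Some genes of the lists are not reported here.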

Additional observations from a re-analysis of the deposited data

How the results depend on the processing

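No member was called lower with edgeR, DESeq2 or limma in any of the comparisons with the control under any alternative, and 0 were called between the guides. The members' median log2 fold change stayed from 0.14 to 0.24. Limma on log2(TPM + 1) gave fewer calls: 11 members higher in the mean of the guides, 5 with sg4, 7 with sg2 and 3 by each guide, and 7 of the other mitosis genes. On that scale the median over all genes was −0.06. Leaving out 1 library gave from 13 to 23 members higher in the mean, from 10 to 25 with sg2, from 8 to 15 with sg4, from 4 to 13 with both guides and from 14 to 33 of the other mitosis genes. Without control 3 and sg4 libraries 2 and 3 together, which leaves 1 sg4 library, assumed to vary like the other groups, 8 were called with sg4 and 7 with both. Whether libraries of the same replicate number shared a culture or preparation is not stated. Their deviations from the group means correlated from −0.265 to 0.117, and not every library correlated best with its own number. The trend with length was left in, and such correlations cannot show that nothing was shared. With the replicate block 19 members were called in the mean and 20 of the other mitosis genes. The log2 fold change of CDC25C, never called, ranged from −0.04 to 0.08 without 1 library, was −0.07 without the 3 libraries together and −0.03 with limma. The causes were not tested. For a member near 10 CPM, such as SPC25, the SE of 0.14 on the log2 scale limits what could be called.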
